A study of Mus musculus with 4 samples.

Results

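Npy1r, Gpm6a and Tenm3 are membrane and receptor genes best known from nerve cells, and their signals differed widely between wild type and catalase-overexpressing mouse aortic endothelial cells. They were chosen by name from the authors' deposited table of 398 probe sets, where Tenm3 stands under its older symbol Odz3. That table was itself selected on large genotype differences on these same arrays. The 3 genes are thus 3 of the 398 probe sets in the table and 3 of the 35557 transcript clusters measured. A cluster is a group of probes, for a named gene those along it, that is summarised as a single value. Clusters outside the table could not be named here. Any control clusters among them therefore stayed in the counts, medians and percentiles over all clusters. All 3 were found by their symbols, and each joined to 1 cluster of the deposited value table.

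The series compared wild type cells (2 arrays) with hcatTg cells (2 arrays), in which human catalase, the enzyme that degrades hydrogen peroxide, is overexpressed. Both came from the C57BL/6J strain, and both were mouse aorta endothelial cells that had reached 80% confluence, spent 12 h without serum and then 12 h with 10% fetal bovine serum. The RNA was hybridised to Affymetrix Mouse Gene 1.0 ST arrays. The promoter of the transgene, the age of the mice and the number of animals behind the RNA were left unstated, being not given in the sources used here. Spreads between arrays may therefore be technical. The headers of the authors' table compare the first arrays of both genotypes at a first time and the second arrays at a second time, and these are called array pairs here.

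NPY1R, the Y1 receptor, is a G protein-coupled receptor for neuropeptide Y and peptide YY. It couples to inhibitory G proteins, and on blood vessels it is known for constricting vascular smooth muscle in response to neuropeptide Y from sympathetic nerves. GPM6A is a membrane glycoprotein of the proteolipid protein family that crosses the membrane several times and promotes filopodia and the outgrowth of neurites. TENM3 is a teneurin, a large adhesion protein with a single membrane span that binds latrophilins on neighbouring cells and helps to wire visual circuits in the mouse.

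The 250 bases before listed RefSeq transcription starts of the 3 genes are shown because Gpm6a and Tenm3 were both lower in hcatTg cells while Npy1r was higher. The promoter set used here (build GRCm38.p6) held 1 such window for Npy1r (chr8:66697172-66697421, plus strand), 2 for Gpm6a (chr8:54779184-54779433 and chr8:54954478-54954727, plus strand) and 1 for Tenm3 (chr8:48674691-48674940, minus strand). Any other starts of their RefSeq transcripts were not searched. Capitals mark matches to the motifs searched on both strands, and the sequences read 5′ to 3′ towards the start.
Npy1r: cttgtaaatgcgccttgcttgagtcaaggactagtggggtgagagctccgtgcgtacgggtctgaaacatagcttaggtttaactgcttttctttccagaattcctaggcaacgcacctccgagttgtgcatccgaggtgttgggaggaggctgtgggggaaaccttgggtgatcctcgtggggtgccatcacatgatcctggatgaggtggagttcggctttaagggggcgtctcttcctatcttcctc
Gpm6a first start: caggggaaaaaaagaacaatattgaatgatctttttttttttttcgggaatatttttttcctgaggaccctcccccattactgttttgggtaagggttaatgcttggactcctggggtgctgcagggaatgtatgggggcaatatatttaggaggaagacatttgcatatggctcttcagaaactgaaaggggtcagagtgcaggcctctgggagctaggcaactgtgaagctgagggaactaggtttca
Gpm6a second start: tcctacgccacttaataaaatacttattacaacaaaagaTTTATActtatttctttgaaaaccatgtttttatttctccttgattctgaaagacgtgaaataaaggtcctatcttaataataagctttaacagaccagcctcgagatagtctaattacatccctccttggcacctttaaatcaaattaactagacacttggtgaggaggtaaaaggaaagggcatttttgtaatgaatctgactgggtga
Tenm3: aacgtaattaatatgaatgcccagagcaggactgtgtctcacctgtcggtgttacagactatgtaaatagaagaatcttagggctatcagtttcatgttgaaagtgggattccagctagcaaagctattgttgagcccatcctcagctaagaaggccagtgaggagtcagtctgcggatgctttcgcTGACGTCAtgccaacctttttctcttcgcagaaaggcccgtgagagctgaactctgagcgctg

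The motifs were the TATA box (TATAAA), the GC box (GGGCGG), the cAMP response element (TGACGTCA) and an E box (CACGTG), none of which overlap in these windows. The Tenm3 window held 1 cAMP response element, beginning 63 bases before the start, and 1.55% of all 32851 windows of this length held one. The second Gpm6a window held 1 TATA box match on the reverse strand, beginning 211 bases before the start, against 12.4% of all windows. No match to any of the 4 motifs lay in the Npy1r window or the first Gpm6a window. GC boxes and E boxes occurred in 32.7% and 6.02% of all windows and in none of these. The content of G and C was 53.6% for Npy1r, 44.4% and 33.6% for the Gpm6a starts and 47.6% for Tenm3, with a median of 52.4% over all windows. The first Gpm6a window held 1 CG dinucleotide and the second 3, where the median was 6, while Npy1r held 10 and Tenm3 held 8. The Tenm3 window and the second Gpm6a window lie inside the spans of longer transcripts of their own genes. These matches describe letters only, and no measurement of these promoters was made.

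Npy1r was near the array median in wild type and high in hcatTg cells. Its log2 signal was 6.19 and 6.46 on wild type arrays 1 and 2, and 9.65 and 11.00 on hcatTg arrays 1 and 2. The genotypes did not overlap, and the higher wild type array lay 3.18 log2 units below the lower hcatTg array. In these bulk samples, for this and every gene below, fewer cells of a type and less RNA per cell cannot be told apart. The mean was 6.33 ± 0.192 for wild type and 10.32 ± 0.957 for hcatTg (SD, n = 2). Within the array pairs the difference was 3.46 and 4.54 log2 units, a mean of 3.996 ± 0.765 (SD, n = 2 pairs), or 16.0-fold. In the authors' deposited table, which holds another normalization of the first arrays, Npy1r stood at 7.21 in wild type and 10.63 in hcatTg, a 10.7-fold difference, and 23.2-fold at the second time.

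Gpm6a ran the other way, high in wild type and low in hcatTg cells. Its log2 signal was 8.30 and 10.34 on wild type arrays 1 and 2, and 4.38 and 5.27 on hcatTg arrays 1 and 2. The genotypes were 3.03 log2 units apart at their closest, although the wild type arrays themselves lay 2.04 apart. That gap was at percentile 97.4 of the gaps between the wild type arrays over all clusters, whose median was 0.455. The mean was 9.32 ± 1.44 for wild type and 4.83 ± 0.631 for hcatTg (SD, n = 2). Gpm6a differed by -3.92 and -5.07 log2 units within the pairs, a mean of -4.49 ± 0.810 (SD, n = 2 pairs), or 22.5-fold higher in wild type. The size of its difference therefore rests on which wild type array is used, being -3.47 without wild type replicate 2 and -5.51 without wild type replicate 1. The authors' deposited table gives 9.22 and 5.02 for the first arrays, and folds of 18.4 and 33.5 towards wild type at the first and second time.

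Tenm3 was also high in wild type and low in hcatTg cells, and it had the smallest gap between array pairs of the 3 genes. Its log2 signal was 8.60 and 9.01 on wild type arrays 1 and 2, and 4.34 and 5.19 on hcatTg arrays 1 and 2. Both hcatTg arrays lay at least 3.41 log2 units below both wild type arrays. The mean was 8.80 ± 0.290 for wild type and 4.76 ± 0.598 for hcatTg (SD, n = 2), and the difference was -4.26 and -3.82 within the pairs, a mean of -4.04 ± 0.309 (SD, n = 2 pairs), or 16.5-fold higher in wild type. The pairs thus differed by 0.437 log2 units for Tenm3, against 1.08 for Npy1r and 1.14 for Gpm6a. In the authors' deposited table Tenm3 stood at 9.27 and 4.91 on the first arrays, with folds of 20.4 and 14.1 towards wild type. It was the one of these genes whose fold in that table was smaller at the second time.

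**Figure D1:**
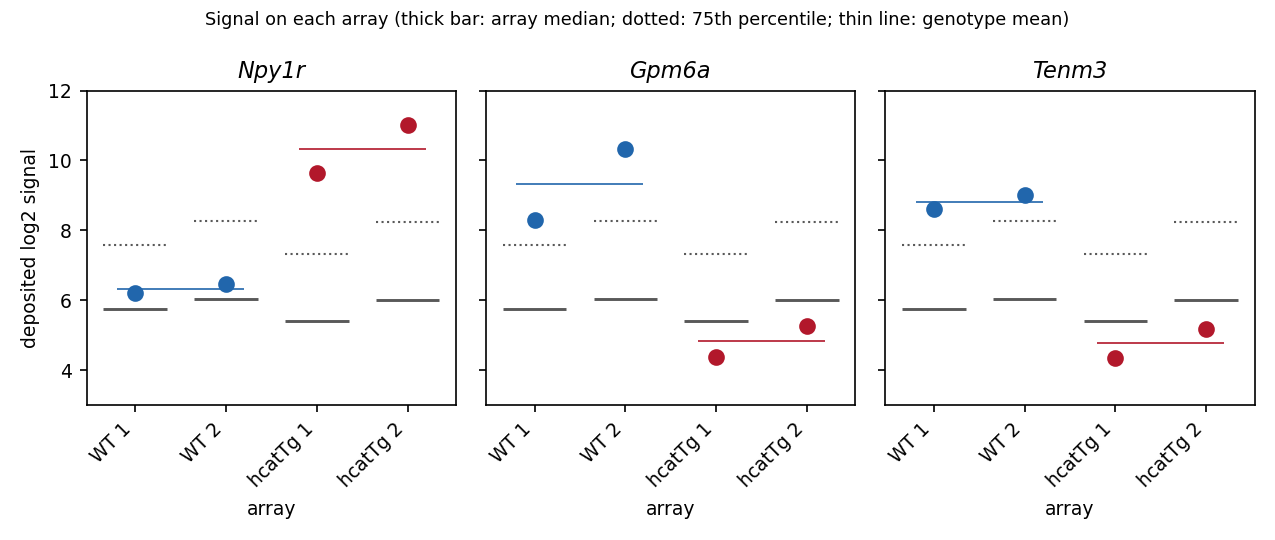
Deposited log2 signal of Npy1r, Gpm6a and Tenm3 on each of the 4 arrays (points, wild type blue and hcatTg red), with the genotype mean as a thin line, the array's median over all clusters as a thick bar and its 75th percentile as a dotted bar. Npy1r sits just above the median on both wild type arrays, while Gpm6a and Tenm3 sit below the median on both hcatTg arrays.

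These differences chose the genes, so they are given as descriptions with no test. An exact two-sided permutation test of 2 arrays against 2 cannot go below p = 0.333. Each difference was larger than the gap between the arrays of either genotype, which reached 1.35 for Npy1r in hcatTg, 2.04 for Gpm6a in wild type and 0.846 for Tenm3 in hcatTg.

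Each gene was also placed among all clusters of each array. Clusters are read by different probes that bind unequally well, so a percentile ranks signals and does not show that a gene is on or off. Npy1r lay at percentiles 57.5 and 55.7 on wild type arrays 1 and 2, with signals 0.44 log2 units above the median of each of those arrays. On hcatTg arrays 1 and 2 it lay at percentiles 93.5 and 95.2. Gpm6a took percentiles 82.8 and 92.4 in wild type and 29.3 and 37.7 in hcatTg. Tenm3 took percentiles 85.7 and 82.6 in wild type and 28.4 and 35.9 in hcatTg. Both were above the 75th percentile in wild type and below the median in hcatTg. Detection above background was not analysed here, so no low state is shown to exceed it, and the folds describe the deposited values.

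A near on-off difference was defined as both arrays of one genotype below their own median and both arrays of the other at or above their 75th percentile. Gpm6a and Tenm3 met this definition and Npy1r did not. Npy1r lay 0.44 log2 units above each wild type median, which was taken over all clusters. The definition was not tried without the 6636 clusters numbered below the first probe set of the authors' table. Among all clusters, 12 met it with the lower state in hcatTg (0.0337%) and 4 with the higher state in hcatTg (0.0112%). The authors' table holds 10 of the 12 and all 4 of the others. The genes were picked from this contrast, so nothing is read from these shares. Beside Gpm6a and Tenm3, the table's lower genes included Ddx3y, a Y-linked helicase gene, the procollagen enhancer gene Pcolce2, Tcf21, Peg3, Clca3a1, Lifr and Lmcd1. The higher ones were Xist, Tnfsf15, Pgr and Slfn3. With the 90th percentile in place of the 75th, neither Gpm6a nor Tenm3 met the definition, and 0 clusters did so in their direction.

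All 3 genes differed by at least 8-fold in both array pairs. Of all clusters, 7 were at least 8-fold higher in hcatTg in both pairs (0.0197%), Npy1r among them, and 15 were at least 8-fold lower (0.0422%), Gpm6a and Tenm3 among them. At the lower limit of 2-fold in both pairs, the kind of limit behind the authors' table, 134 clusters were higher (0.377%) and 419 lower (1.18%). After median centring these became 178 and 267, and after quantile normalization 181 and 282. The genes were picked from this contrast, so nothing is read from their share here either. The smallest fold listed in the authors' deposited table was 2.004, far below the folds of these genes.

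By mean difference, Npy1r ranked 5 among the clusters higher in hcatTg, and Gpm6a and Tenm3 ranked 3 and 6 among those lower. Rank depended on the pair. Npy1r was at place 56 in the first pair and 9 in the second. Without the 6636 clusters numbered below the first probe set of the authors' table, a choice made after seeing the data, Npy1r moved to place 5 in the first pair and kept 9 in the second. Gpm6a was at places 5 and 4. Tenm3 was at places 3 and 20, and leaving out those clusters changed neither gene's places. By the smaller of the 2 pair differences, Gpm6a was at place 3 and Tenm3 at place 4 of the lower clusters, and Npy1r at place 4 of the higher. The median difference over all clusters was -0.37 in the first pair and 0.01 in the second, small beside the differences of the 3 genes.

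**Figure D2:**
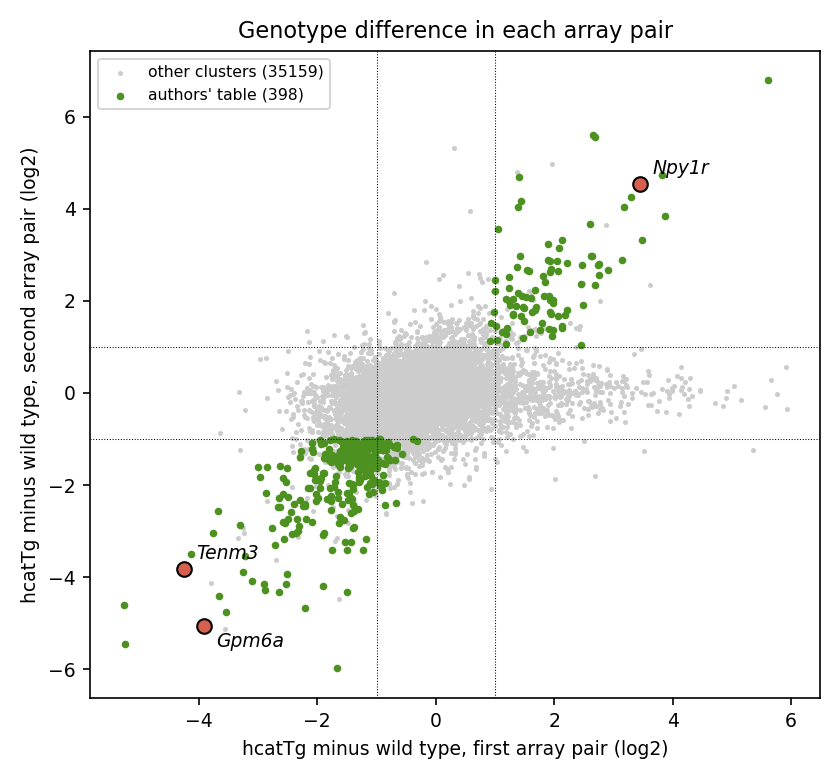
Difference in log2 signal, hcatTg minus wild type, in the first array pair (horizontal) and the second (vertical) for every cluster, with the 398 probe sets of the authors' table in green and the 3 genes in red. Dotted lines mark 2-fold, and the 3 genes lie near the ends of the diagonal, Npy1r at 3.46 and 4.54, Gpm6a at -3.92 and -5.07 and Tenm3 at -4.26 and -3.82.

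The genes of the authors' table with the most similar pattern were found by the distance between the 4 log2 values after each gene's own mean was subtracted, over the 4 arrays and all other probe sets of that table. Nearest to Npy1r were Dlk1, which is imprinted and encodes a membrane protein related to Delta (distance 0.627 log2 units), Pi15, a peptidase inhibitor gene (0.925), the progesterone receptor gene Pgr (0.931) and Angpt2, which encodes a ligand of the endothelial receptor Tie2 (1.05). Dlk1 differed by 3.87 and 3.85 in the pairs, almost evenly, while Pgr differed by 2.69 and 5.56. The mean log2 signal of Dlk1 in wild type was 6.75 ± 0.389 (SD, n = 2).

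Nearest to Gpm6a were C4bp, a complement regulator gene (0.791), Eif2s3y, a Y-linked translation factor gene (0.810), Peg3, an imprinted zinc finger gene (0.961), and Adamts9, a secreted metalloprotease gene (0.983). C4bp shared the spread between wild type arrays, at 10.82 ± 1.73 for wild type and 6.78 ± 1.20 for hcatTg (SD, n = 2). Among the nearest to Tenm3 were Crip2, a LIM domain protein gene (0.666), Eif2s3y (0.837) and Adamts9 (0.956). Crip2 differed by -4.12 and -3.51, larger in the first pair as Tenm3 was.

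Gpm6a and Tenm3 were 1.24 log2 units apart in pattern. Tenm3 was at place 9 from Gpm6a, and Gpm6a at place 12 from Tenm3, so each had closer genes in the table. With the sign turned, Npy1r was 1.63 from Tenm3 and 2.33 from Gpm6a. The table was selected for large differences, so nothing is read from this likeness.

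**Figure D3:**
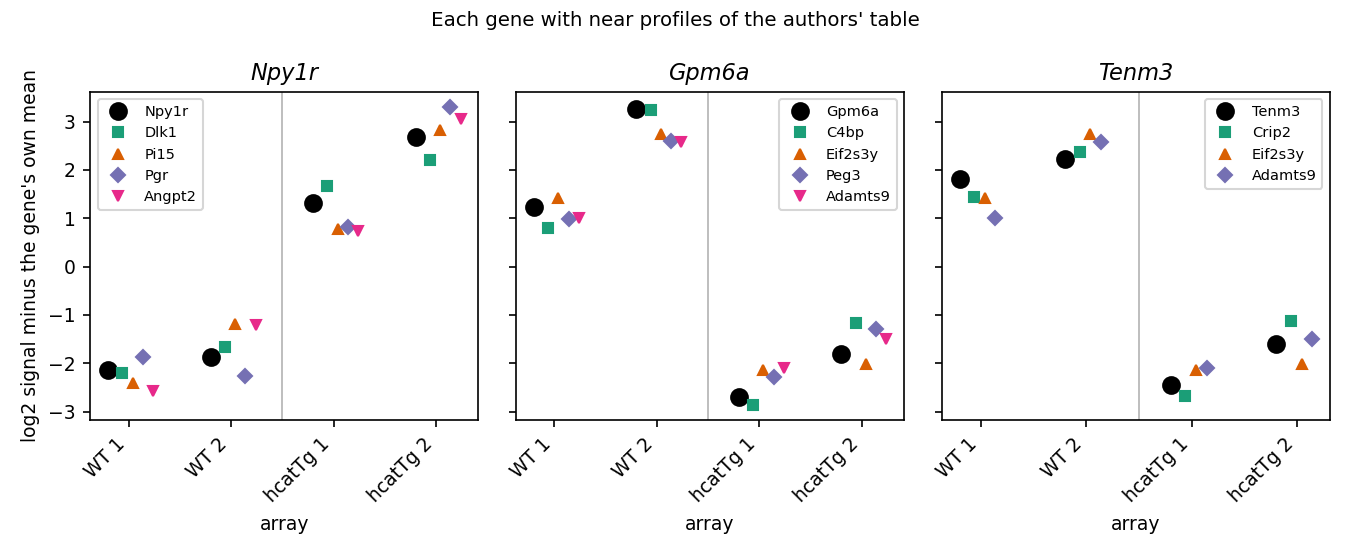
Log2 signal minus each gene's own mean on the 4 arrays for Npy1r, Gpm6a and Tenm3 (black) and near genes of the authors' table, 4 for Npy1r and Gpm6a and 3 for Tenm3 (coloured markers, set side by side within an array). Wild type arrays lie left of the grey line and hcatTg arrays right of it, and the closest match is Dlk1 to Npy1r, at 0.627 log2 units.

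Eif2s3y, near in pattern to both Gpm6a and Tenm3, belongs to the sex-linked genes that also separated the genotypes. It stood at 7.78 ± 0.944 for wild type and 3.63 ± 0.0884 for hcatTg (SD, n = 2). Xist, the RNA that silences an X chromosome in female cells, stood at 4.68 ± 0.0374 and 10.89 ± 0.792. Ddx3y, Uty and Kdm5d, also Y-linked, differed by -5.34, -3.49 and -2.47 log2 units. These Y-linked signals were thus higher in wild type and Xist was higher in hcatTg. Genotype and this sex-linked difference cannot be told apart for Npy1r, Gpm6a or Tenm3.

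Relatives and partners of the 3 genes were sought in the authors' table, whose names are the only ones used here, so absence from it says nothing about level. The table held 384 of 21900 protein-coding genes (1.75%), and 305 of its 398 probe sets (76.6%) were lower in hcatTg, so most members of any list in it would be lower. The list of neuropeptide Y peptides and receptors had 10 symbols, among them Dpp4, a peptidase gene, and Npy4r also under its older symbol Ppyr1. Of these genes 2 were in the table, and they went opposite ways. Npy4r, the Y4 receptor gene, whose preferred ligand is pancreatic polypeptide, had log2 signals of 6.90 and 8.96 on wild type arrays 1 and 2, and 4.99 and 4.78 on hcatTg arrays 1 and 2. It was lower in both hcatTg arrays, without overlap, while Npy1r was higher in both. Npy4r differed by -1.90 in the first pair and -4.18 in the second, a mean of -3.04 ± 1.61 (SD, n = 2 pairs). The pairs thus gave very different sizes for Npy4r. Of the 3 proteolipid family genes and the 17 listed symbols of teneurins, latrophilins and other partners, the table held Gpm6a and Tenm3 alone. Those 17 symbols count several genes under both an older and a current name.

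Other nerve-related lists are set beside the median difference of all 398 probe sets in the table, which was -1.36. Of 41 axon guidance genes, 6 were present, 2 higher and 4 lower in hcatTg, with a median of -1.41. The ephrin receptor gene Epha4 differed by -2.59 ± 0.407 and Epha7 by -1.48 ± 0.122 (SD, n = 2 pairs). Sema3e, a semaphorin gene that repels endothelial cells through plexin D1, differed by -2.51 ± 0.0990, and Robo1, a Slit receptor gene, by -1.35 ± 0.0777. Slit2, a ligand of Robo receptors, differed the other way by 2.13 ± 0.396 and the semaphorin gene Sema3d by 1.70 ± 0.0951. A receptor gene and a ligand gene of the Slit and Robo system thus went opposite ways.

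Of 58 receptors and channels of nerve cells, the potassium channel gene Kcnj15 (-1.81 ± 0.0988) and the glutamate receptor subunit gene Gria3 (-0.99 ± 0.172) were present, and for Gria3 the genotypes overlapped. None of 39 neuronal adhesion genes was in the table. Of 19 neuronal markers, 2 were there in opposite directions: the tubulin gene Tubb3 differed by -1.59 ± 0.301 and the ubiquitin hydrolase gene Uchl1 by 1.80 ± 0.382 (SD, n = 2 pairs). Of 14 glial markers, 0 were there. The name neural-type therefore rests on the known roles of the 3 genes, and most defining nerve cell markers were not analysed here.

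**Figure D4:**
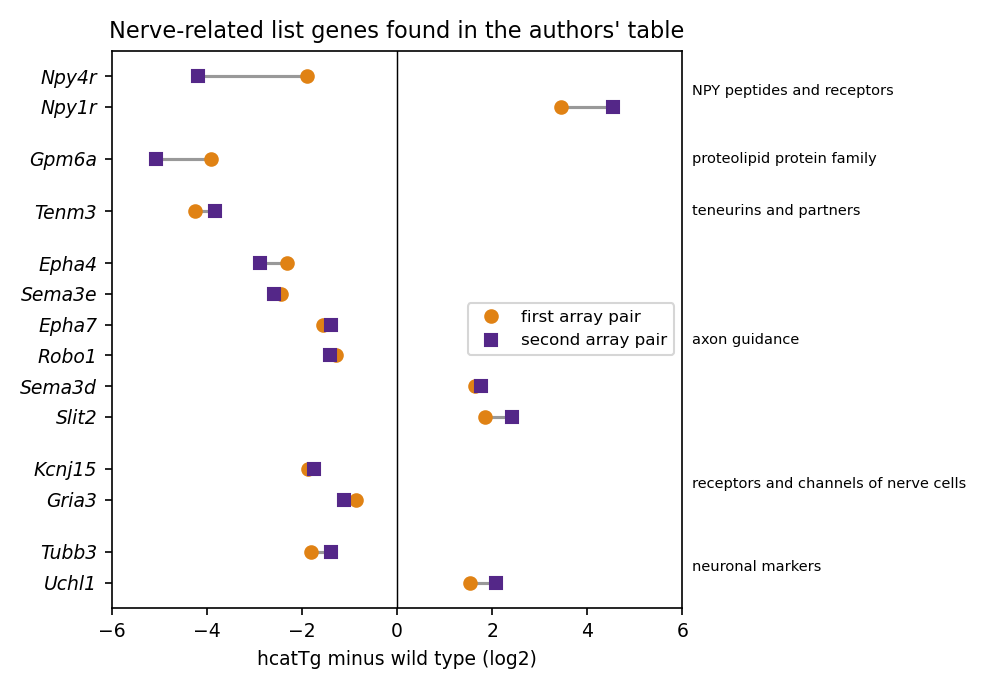
Difference in log2 signal, hcatTg minus wild type, in the first (circles) and second (squares) array pair for the 14 genes of the nerve-related lists that the authors' table holds, grouped by list. Npy1r and Npy4r lie on opposite sides of 0, and the longest span between pairs is that of Npy4r, from -1.90 to -4.18.

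Npy1r, Gpm6a and Tenm3 all lie on mouse chromosome 8 in the RefSeq table (GRCm38.p6), which was used for gene order only, the build behind the arrays' annotation being not given in the sources used here. In the order of its 1043 protein-coding genes, Tenm3 was at place 330, Gpm6a at 339 and Npy1r at 391. The authors' table names 4 of the 10 protein-coding genes from Tenm3 to Gpm6a, and all 4 were lower in hcatTg, where 1.75% of all protein-coding genes were in the table and 76.6% of its probe sets were lower. The end genes, Tenm3 and Gpm6a, are 2 of these 4 and were chosen for their differences, so nothing is read from this count. The others were Vegfc, a lymphangiogenic growth factor gene at place 334, and Asb5, an ankyrin repeat gene at place 336. Vegfc had log2 signals of 7.39 and 7.88 on the wild type arrays and 4.53 and 5.70 on the hcatTg arrays, a difference of -2.52 ± 0.487 (SD, n = 2 pairs). Asb5 had 5.67 and 6.02 against 4.67 and 4.40, a difference of -1.31 ± 0.444. None of the 51 protein-coding genes between Gpm6a and Npy1r was in the table. Among the 50 nearest genes of any type, 25 on each side, the table held 2 for Gpm6a and 0 for either of the others.

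Chromosome 8 carried 24 of the 385 table genes matched to RefSeq (6.23%), against 4.76% of all protein-coding genes, and 21 of the 24 were lower in hcatTg, against 305 of the 398 probe sets of the whole table. Nothing particular to the chromosome is read from these counts. Angpt2 and Mmp2 were its other higher genes. The other genes of the segment from Tenm3 to Gpm6a were not named here, and whether they differed was not analysed here. Gpm6a and Tenm3 are long genes, spanning 281445 and 1297160 bases with predicted transcripts included, at percentiles 97.2 and 99.9 of protein-coding genes. Npy1r spans 9652 bases, where the median is 17146.

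**Figure D5:**
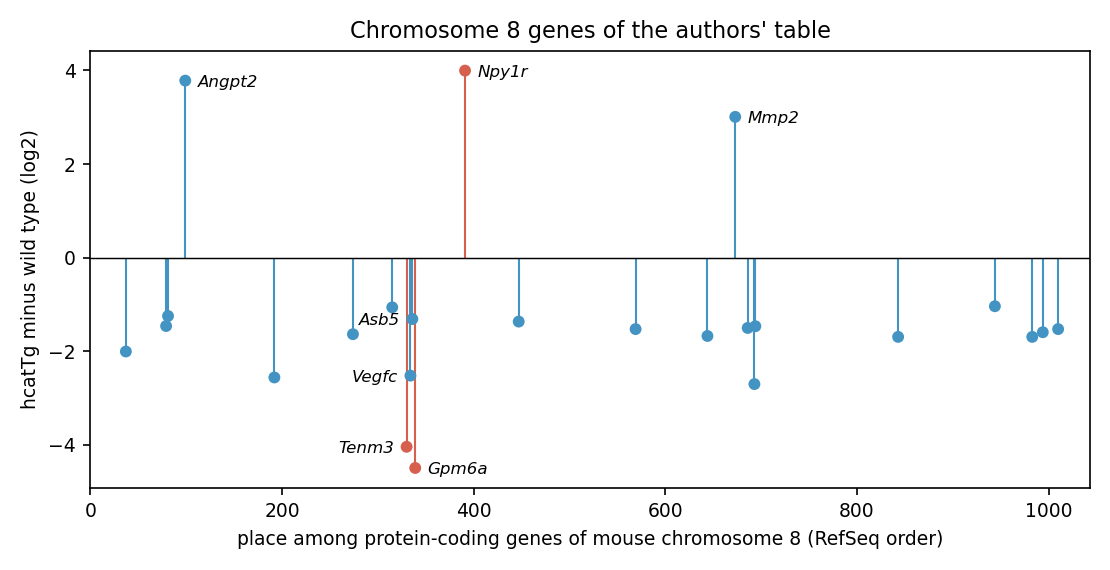
Mean difference in log2 signal, hcatTg minus wild type, of the 24 chromosome 8 genes of the authors' table, set by their place among the 1043 protein-coding genes of that chromosome. The 3 genes are red, and Tenm3, Vegfc, Asb5 and Gpm6a stand together between places 330 and 339, all below 0.

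Markers of other cell types also differed between the genotypes. Each range below spans the 2 arrays of a genotype, every value being the mean over the listed genes that the table held. Means over genes going both ways hide their single differences. Of 11 smooth muscle and mural markers, the table held 5, each lower in hcatTg as were 76.6% of all its probe sets. Their mean log2 signal was 7.28 to 9.33 in wild type and 5.67 to 7.02 in hcatTg. For Pdgfrb, 1 of the 5, the genotypes overlapped. Of 9 mesothelial markers, 5 were in the table, 3 higher and 2 lower, with mean signals of 7.70 to 7.72 in wild type and 8.16 to 8.25 in hcatTg. Of 8 macrophage and leukocyte markers, 3 were there, 1 higher and 2 lower, at 5.94 to 6.93 and 5.50 to 6.19. Of 8 fibroblast markers, Fbln1 was there, at 8.24 and 10.50 in wild type cells and 6.69 and 7.74 in hcatTg cells. Of 15 endothelial markers, Kdr and Eng were there. In wild type cells Kdr stood at 5.63 and 4.67, under the array medians of 5.75 and 6.02, and in hcatTg cells at 6.68 and 8.24, over the medians of 5.40 and 6.00. Eng stood at 9.57 and 10.15 in wild type and at 8.40 and 8.71 in hcatTg. Both endothelial markers thus differed in opposite directions, Kdr by 2.31 ± 1.78 and Eng by -1.31 ± 0.196 log2 units (SD, n = 2 pairs). Other defining endothelial markers were not analysed here. The part of these cell types in the differences of Npy1r, Gpm6a and Tenm3 was not tested.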

How the data were processed

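RNA of 2 wild type and 2 hcatTg samples was measured on 4 arrays. The deposited value table holds log2 signals of 35557 clusters, and the submitters' processing notes name Affymetrix Expression Console. Array medians of 5.40 to 6.02 differ, so a common distribution was not imposed on all 4 arrays. The second arrays were nearly alike, with medians of 6.02 in wild type and 6.00 in hcatTg and 75th percentiles of 8.26 and 8.24. The first arrays were less alike, with medians of 5.75 and 5.40 and 75th percentiles of 7.58 and 7.33. The part of processing in the gaps between arrays of a genotype was not tested. The log2 scale was inferred: the second fold of the authors' table matches the second arrays' difference to within 9e-05. The authors' deposited table gives log2 RMA signals of the first arrays, a linear ratio and signed folds, treated as a score, per the file headers. Its first log2 ratio differed from the value table by a median of 0.129. Array annotation and build were left unstated, being not given in the sources used here. Names came from that table, 385 matched to RefSeq by accession and 13 kept from the file.

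Differences were computed in Python 3.11.15 with pandas 2.3.3 and numpy 2.4.6 as hcatTg minus wild type, with no filter on level, and the counting steps were tested on simulated data. No differential expression test was run, since the genes were chosen on this contrast. Array pairs follow the headers of the authors' table, and the paired arrays' departures from their genotype means had r = 0.689 over clusters (not independent replicates). The number of arrays limits the precision.

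Genes and lists were chosen with earlier results of these data known. Named genes are the 3 members, the 4 nearest in pattern to each (1 of them is not reported here), table genes among the 25 neighbours on each side and up to 6 per list. The near on-off, sex-linked and chromosome 8 genes and the array markers are named beside their counts. Alternatives were median centring, quantile normalization, the authors' signals, the replicate block, other limits, a filter on level and leaving out each array.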

Additional observations from a re-analysis of the deposited data

How the results depend on the processing

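The differences of Npy1r, Gpm6a and Tenm3 were 4.18, -4.31 and -3.86 under median centring, 4.11, -4.34 and -3.89 under quantile normalization, and 3.42, -4.20 and -4.35 with the authors' signals of the first arrays. Their direction could not turn when an array was left out, since the genotypes did not overlap. Leaving out an array gave 3.32 to 4.67 for Npy1r, -5.51 to -3.47 for Gpm6a and -4.46 to -3.62 for Tenm3. The replicate block, which takes differences within the pairs, gives the same means by construction (3.996, -4.49 and -4.04).

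The counts over all clusters depended more on their limits. At 4-fold and 8-fold, 29 and 7 clusters were higher in both pairs and 61 and 15 lower. Median centring gave 267 lower. With the 90th percentile, 1 cluster was near on-off higher and 0 lower. Leaving out an array gave 8 to 52 higher, 52 being without wild type replicate 2 and 8 without wild type replicate 1, with 13 without either hcatTg array. It gave 12 to 25 lower, 25 being without wild type replicate 1. These settings need fewer arrays to meet the definition. Signal over background was not analysed, so the lower states may be bounds.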

Other observations

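Further nerve-associated genes outside the lists stood in the authors' table, and 7 were picked after their values were seen, so their common direction supports nothing. All 7 were lower in hcatTg, as were 76.6% of the table's probe sets. Nsg1, an endosomal protein gene of neurons, differed by -1.82 ± 0.125 log2 units (SD, n = 2 pairs), and Gabra4, a GABA receptor subunit gene, by -1.74 ± 0.0853. Neto2, which encodes an auxiliary subunit of kainate receptors, differed by -1.67 ± 0.558, and Lgi2 by -1.27 ± 0.271. The intermediate filament gene Nes differed by -1.31 ± 0.0722. For the kinase gene Dclk1 (-1.43 ± 0.111) the genotypes overlapped.

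Genes of G protein signalling, the route by which the Y1 receptor acts, were also present, and 7 were picked in the same way. These 7 were lower in hcatTg too, as was most of the table, and their common direction likewise supports nothing. A link between them and Npy1r was not tested. Gnao1, an inhibitory G protein subunit gene and one of both groups, differed by -1.50 ± 0.425 log2 units (SD, n = 2 pairs), and Gng11 by -1.16 ± 0.0156. The adenylyl cyclase genes Adcy1 and Adcy8 differed by -1.50 ± 0.421 and -1.60 ± 0.612. Rgs2, Rgs4 and Rgs5, whose products shorten G protein signals, differed by -1.32, -1.20 and -2.92. Rgs5 is also on the mural marker list, and its difference was -1.50 in the first pair and -4.33 in the second.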
